A study of Mus musculus with 65 samples.

Results

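Messenger RNA of 8 B cell and plasma cell genes was followed across 17 mouse mammary glands and 48 mouse mammary tumours measured on Affymetrix arrays. The genes were taken as a named group, 8 of 18194 genes that a probe set of the array marks alone, and were split into 2 plasma cell genes, Jchain and Mzb1, and 6 B cell genes, Ms4a1, Cd79a, Cd79b, Cr2, Pou2af1 and Cxcr5. Together they have 9 such probe sets, Ms4a1 having 2. Levels are log2 values of the robust multi-array average (RMA), and each gene is given by its brightest probe set.

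All mice were BALB/c. The glands came from littermates with both copies of Tgfb1 (wild-type) or 1 copy (heterozygous), aged 10 weeks, all injected with estrogen and progesterone 2 days ahead of exposure. Wild-type glands were taken 1 week after sham treatment (3 arrays), 1 week after 10 cGy (3 arrays) and 4 weeks after 10 cGy (3 arrays), and heterozygous glands at the same points (3, 2 and 3 arrays). The lymph node had been taken out of the inguinal gland, and its posterior end supplied the RNA. The tumours arose from p53-null BALB/c mammary fragments grafted into fat pads that had been cleared of host epithelium at 3 weeks of age, 3 days after the host was irradiated or left unirradiated. Hosts were wild-type sham (9 tumours), wild-type irradiated (23 tumours), Tgfb1 heterozygous sham (6 tumours) or Tgfb1 heterozygous irradiated (10 tumours). The donor tissue carried the p53 deletion in every group, while the Tgfb1 genotype and the exposure belonged to the host, which supplies the blood and immune cells of the tumour. The labels used here name no host dose. The design addresses how low-dose radiation and host Tgfb1 dosage alter mammary tissue.

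B cells detect antigen through a surface immunoglobulin that signals through the CD79A and CD79B proteins. Activated B cells can mature into plasma cells, which shut down much of the B cell surface programme and secrete large amounts of antibody. The mammary gland is known for plasma cells that make immunoglobulin A (IgA), which is joined into dimers by the J chain, taken up by the polymeric immunoglobulin receptor and passed into milk. TGF-beta is known as a factor that directs B cells to switch to IgA and that restrains lymphocytes.

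The 250 bases upstream of the start used in the RefSeq promoter table (GRCm38.p6) are shown for the 4 of 8 members matched there. These are Jchain, Cd79a, Cr2 and Pou2af1. Among these, Jchain was higher in most heterozygous arrays, Cd79a went with lymphocyte-rich glands, and Cr2 and Pou2af1 were high in separate tumours. Lower case is sequence 5′ to 3′ on the strand of the gene, and capitals mark an E-box, the letters CAGGTG on either strand, a core bound by E proteins of the B lineage.
Jchain, chr5:88527898-88528147, minus strand: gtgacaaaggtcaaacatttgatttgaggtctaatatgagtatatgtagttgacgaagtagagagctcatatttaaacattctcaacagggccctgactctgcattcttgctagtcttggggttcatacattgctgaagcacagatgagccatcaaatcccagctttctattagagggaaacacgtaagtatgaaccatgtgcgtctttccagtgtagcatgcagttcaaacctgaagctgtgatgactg
Cd79a, chr7:24897247-24897496, plus strand: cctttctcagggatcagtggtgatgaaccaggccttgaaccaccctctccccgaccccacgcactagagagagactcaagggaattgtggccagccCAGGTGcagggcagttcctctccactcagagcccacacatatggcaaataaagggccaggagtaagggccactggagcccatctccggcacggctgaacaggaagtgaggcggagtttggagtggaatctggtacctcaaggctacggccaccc
Cr2, chr1:195176720-195176969, minus strand: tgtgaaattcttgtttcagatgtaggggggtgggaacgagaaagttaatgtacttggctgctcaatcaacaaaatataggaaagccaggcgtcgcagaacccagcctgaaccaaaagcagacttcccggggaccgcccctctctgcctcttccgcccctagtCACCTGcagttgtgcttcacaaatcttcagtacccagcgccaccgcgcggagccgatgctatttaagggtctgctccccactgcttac
Pou2af1, chr9:51213440-51213689, plus strand: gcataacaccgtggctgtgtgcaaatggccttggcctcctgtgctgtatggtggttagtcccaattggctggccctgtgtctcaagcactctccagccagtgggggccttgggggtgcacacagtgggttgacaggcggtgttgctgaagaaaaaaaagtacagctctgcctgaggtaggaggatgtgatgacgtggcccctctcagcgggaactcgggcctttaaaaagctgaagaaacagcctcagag
The E-box was found once in Cd79a, at bases -154 to -149 from the start, and once in Cr2, at bases -88 to -83. For Cr2 the start used lies inside the gene as annotated, which reaches base 195176880. Its window therefore overlaps the gene, and its E-box lies within the gene and not upstream of it. Of 32851 promoters of the same length in the table, 17.2% hold it. The octamer ATTTGCAT, the element through which the POU2AF1 protein acts with its partners, was in none of the 4 windows and in 1.60% of all promoters. The EBF1 letters CCCNNGGG (11.8% of all promoters) and the PU.1 letters GAGGAAGT (2.44%) were also in none of the 4. All motifs were searched on both strands. A match describes the letters only, and the absence of one says nothing about binding of a factor.

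Array medians lay between 4.86 and 4.93 in glands and between 5.84 and 5.96 in tumours. The mean of 8 epithelial markers was 10.53 to 10.90 over the gland groups and 10.90 to 11.36 over the tumour groups, with single tumours from 7.53 to 12.37. In glands, 5 adipocyte markers averaged 11.82 to 12.17. Tgfb1 itself was 4.57 to 5.45 in the 9 wild-type glands and 3.81 to 4.67 in the 8 heterozygous glands, a difference of -0.84 (SE 0.13) over sham, 1 week and 4 weeks with a limma adjusted p = 0.0351. In tumours of irradiated hosts, which contain donor cells with both Tgfb1 copies as far as the labels say, it differed between host genotypes by -0.23 (SE 0.22), and in tumours of sham hosts by -0.94 (SE 0.31, limma adjusted p = 0.872). In 1 wild-type host tumour, irradiated number 1, the title says irradiated and other labels say sham; it was kept by its title.

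Glands, plasma cell genes. Jchain, the peptide that joins IgA and IgM into polymers, was higher in heterozygous than in wild-type glands in nearly every array, but the difference did not pass over all genes. The wild-type sham arrays were at 5.59, 5.72 and 4.83. The heterozygous sham arrays were at 8.14, 6.84 and 7.77. The lowest heterozygous sham array thus lay above the highest wild-type sham array. At 4 weeks after 10 cGy the wild-type arrays were at 4.65, 5.82 and 5.14. The heterozygous arrays at 4 weeks were at 8.53, 7.00 and 7.55, again with no overlap, as in 5.02% of genes with the heterozygotes higher; among the members Cr2 also had none, at 2.91 to 3.41 against 3.47 to 3.50. At 1 week the groups overlapped, because wild-type array 1 was at 9.71, the highest Jchain level of all glands, beside 5.33 and 6.65 in the other two wild-type arrays and 7.30 and 6.80 in the heterozygous arrays. Of the 9 wild-type glands, 8 lay below all 8 heterozygous glands. The share of all genes with such a split was not computed.

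The genotype difference in Jchain, averaged over sham, 1 week and 4 weeks, was 1.51 (SE 0.48), or 2.84-fold, with an unadjusted limma p = 0.00688 and a limma adjusted p = 0.294 over 12945 genes. In that comparison 6 genes, or 0.0463% of those tested, passed the adjusted threshold of 0.05, and 12% had an unadjusted p below it. In sham glands alone the difference was 2.21 (SE 0.80) with a limma adjusted p = 0.965, where no gene passed limma and 3.55% had an unadjusted p under the threshold; 3.8% of genes had every heterozygous sham array above every wild-type one. Without wild-type 1-week array 1 the averaged difference was 1.92 and passed (limma adjusted p = 0.0294), while over all 24 alternative fits the limma adjusted p ran from 0.0294 to 0.512. In bulk RNA, more plasma cells and more RNA per cell cannot be told apart.

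Mzb1, an endoplasmic reticulum cofactor for antibody assembly and secretion in plasma cells and marginal zone B cells, did not follow genotype in the way Jchain did. Wild-type arrays were at 5.50, 4.84 and 4.72 in sham, at 7.61, 4.70 and 4.68 at 1 week, and at 4.89, 4.98 and 4.43 at 4 weeks. Heterozygous arrays were at 6.37, 4.71 and 5.10 in sham, at 4.90 in both arrays at 1 week, and at 5.31, 4.76 and 4.98 at 4 weeks. Its genotype difference was -0.048 (SE 0.37, limma adjusted p = 0.966), and the highest array of each sham group and of the wild-type 1-week group was number 1. Away from those 3 arrays Mzb1 stayed between 4.43 and 5.31, close to the array medians.

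**Figure D1:**
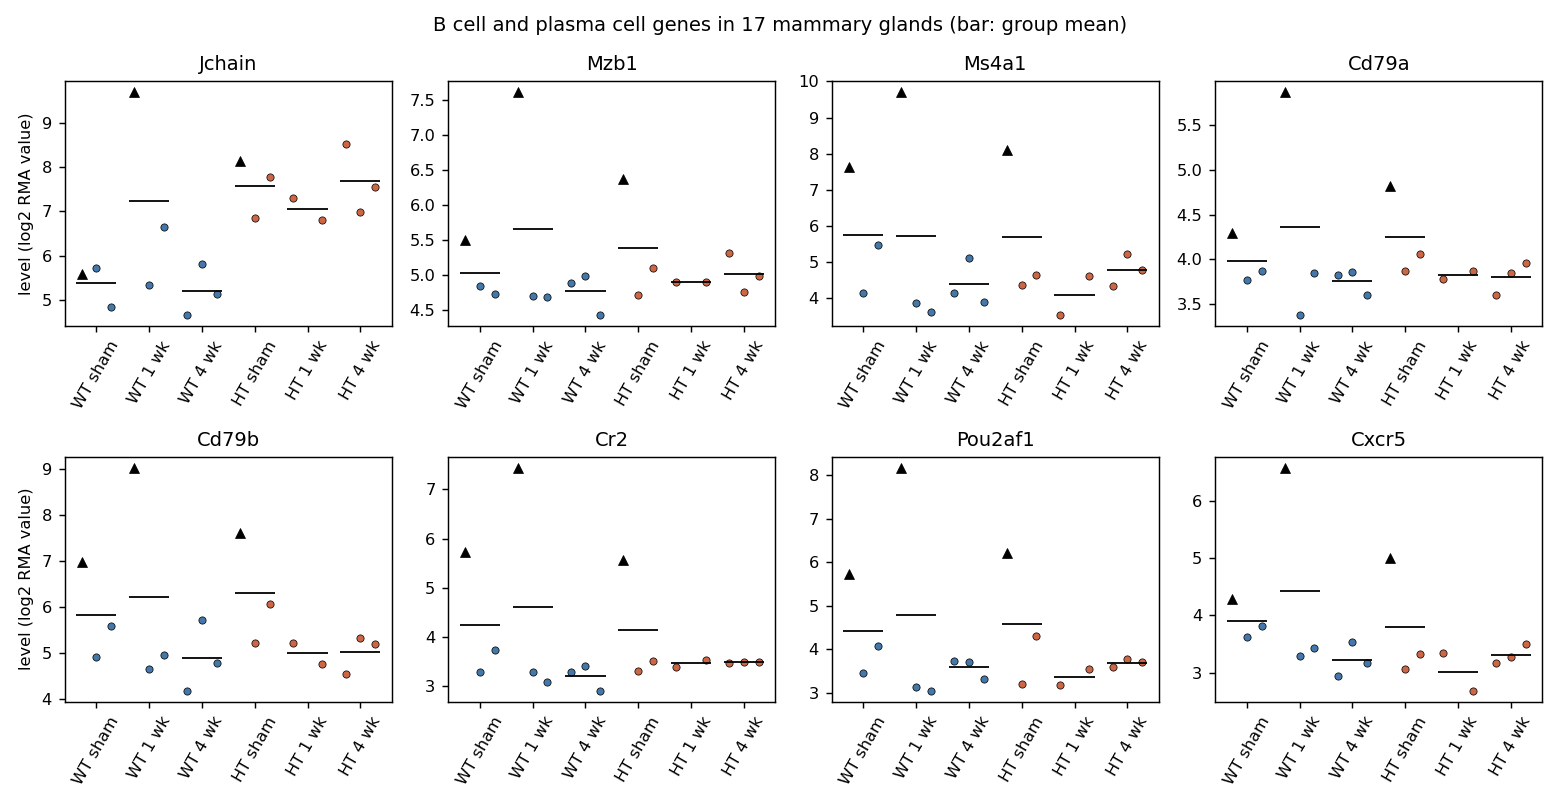
Level (log2 RMA value, vertical axis, a separate scale per gene) of the 8 genes in 17 glands by group, wild-type (WT, blue) and Tgfb1 heterozygous (HT, orange), with a bar at the group mean. Black triangles are the 3 arrays with the highest T cell marker levels; they are the top 3 arrays for all genes shown except Jchain.

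Immunoglobulin genes were set beside Jchain. Igha, the IgA heavy chain constant region, was picked out after its values were seen. It was at 6.70, 7.58 and 6.13 in wild-type sham, 7.20, 7.28 and 8.57 in wild-type at 1 week and 6.76, 7.10 and 6.77 in wild-type at 4 weeks. The heterozygous arrays were at 9.40, 7.21 and 9.09 in sham, 9.41 and 8.91 at 1 week and 9.55, 8.59 and 9.04 at 4 weeks. Of the 8 heterozygous glands 7 lay above all 9 wild-type glands, the exception being heterozygous sham array 2; at 1 week the groups did not overlap, as in 9.29% of genes with the heterozygotes higher. Its averaged genotype difference was 1.81 (SE 0.31), or 3.50-fold, with a limma adjusted p = 0.0573; with no filter on low genes it passed (0.0495), and the range over 24 alternatives was 0.0147 to 0.178. Wild-type 1-week array 1, the highest for Jchain, was at 7.20 for Igha but at 12.22 for Ighm, the IgM heavy chain constant region, against 7.99 to 10.28 for Ighm in the other glands. The 11 probe sets of Ighm did not behave alike, and the brightest is given. Over glands their correlation with Cd79b ran from -0.16 to 0.83 and that with Igha from 0.079 to 0.77. The brightest was at 0.75 with Cd79b and 0.17 with Igha. By that probe set, wild-type 1-week array 1 was high in Jchain and Ighm and not in Igha. The heterozygous glands were high in Jchain and Igha. Other Ighm probe sets, closer to Igha, may not show this contrast. Fkbp11, a secretory pathway prolyl isomerase abundant in plasma cells, was also named after its values were seen. It differed by 0.62 (SE 0.13, limma adjusted p = 0.0983), with 6 of 8 heterozygous glands above all wild-type glands. How many of all genes place the glands as Igha or Fkbp11 did was not computed.

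The 5 genes most like Jchain over the 17 glands, by Pearson correlation, were an immunoglobulin kappa variable gene (r = 0.932), the lambda variable gene Iglv1 (0.895), Igk (0.848), the myosin light chain Myl4 (0.812) and Pxdc1 (0.765). Igha correlated with Jchain at 0.659 over 17 arrays and at 0.910 over the 14 left without the 3 T cell-rich arrays. These correlations share arrays and are descriptive. Of 17 other plasma cell genes tested, 0 passed limma in either direction for genotype and 3 had an unadjusted p under 0.05, all higher in heterozygotes, beside the 12% of all genes already given. Of those 17, which include Igha and Fkbp11, 12 were higher in heterozygotes. The median difference of those 17 was 0.086 and that of all genes was -0.019. The 3 brightest, Xbp1, the transcription factor of the secretory programme, at 11.69 to 12.26, Sec11c, a signal peptidase subunit, at 9.23 to 9.81, and Sdc1, the CD138 surface proteoglycan, at 8.99 to 9.95, are also made by epithelium.

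Skeletal muscle markers varied widely between the same groups, and 0 of 8 passed for genotype. Group means of 8 muscle genes were 8.90, 6.63 and 7.64 in wild-type sham, 1-week and 4-week glands and 6.11, 7.13 and 5.54 in the heterozygous groups, with arrays from 4.56 to 12.08. Their part in the Jchain and Igha differences was not tested.

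**Figure D2:**
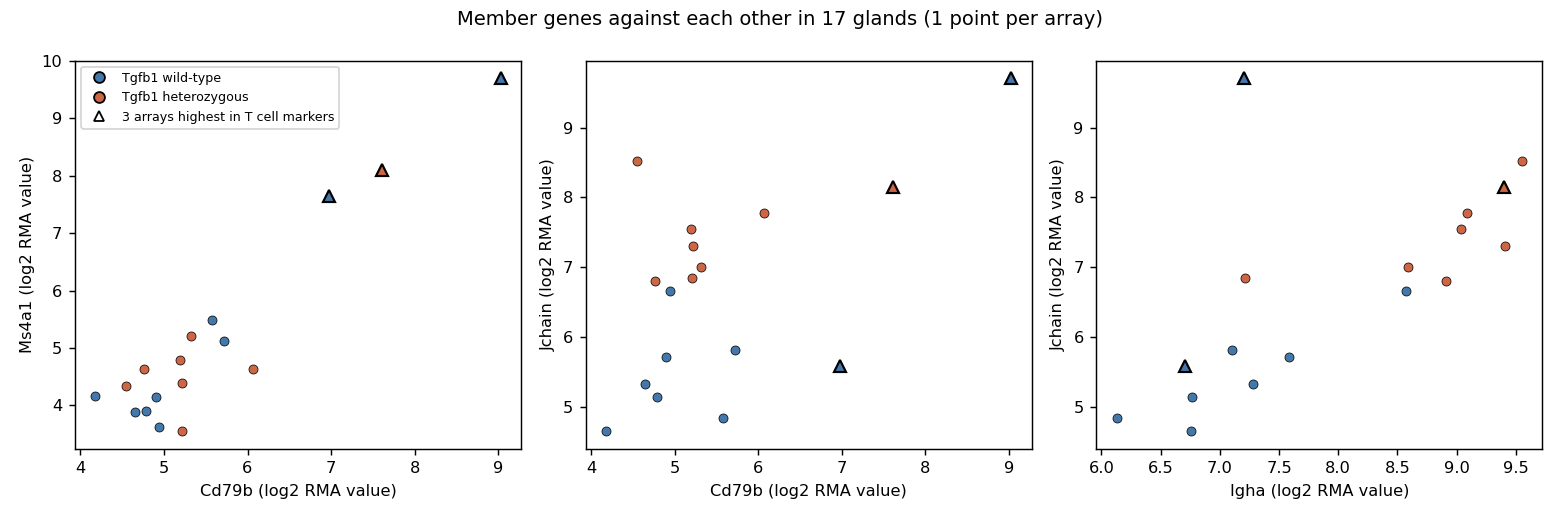
Levels (log2 RMA values on both axes) of pairs of genes in 17 glands, 1 point per array, wild-type blue and heterozygous orange, with triangles for the 3 arrays highest in T cell markers. Ms4a1 follows Cd79b, while Jchain sits higher in heterozygous arrays at like Cd79b and follows Igha in all but wild-type 1-week array 1, at 9.71 for Jchain and 7.20 for Igha.

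Glands, B cell genes. The 6 B cell genes were high in 3 arrays, 1 each from the wild-type sham, wild-type 1-week and heterozygous sham groups. Ms4a1, which encodes the CD20 surface protein, was at 9.70 in wild-type 1-week array 1, at 8.10 in heterozygous sham array 1 and at 7.65 in wild-type sham array 1. The other 14 arrays were between 3.55 and 5.48, so the next gland lay well under those 3. A second, dimmer Ms4a1 probe set showed the same order, at 7.78, 5.64 and 5.40 in the 3 arrays.

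Cd79b, a signalling chain of the B cell receptor, was at 9.03, 7.61 and 6.98 in the same 3 arrays and at 4.18 to 6.07 elsewhere. Its partner chain Cd79a, with a dimmer probe set, was at 5.87, 4.81 and 4.30 against 3.38 to 4.06 elsewhere. Cr2, complement receptor 2 of mature B cells and follicular dendritic cells, was at 7.44, 5.57 and 5.72. In the other 14 glands Cr2 lay between 2.91 and 3.74, under the filter level of 4.15. Pou2af1, a transcriptional coactivator needed for germinal centres, was at 8.17, 6.21 and 5.73 against 3.06 to 4.30. Cxcr5, the chemokine receptor that brings B cells into follicles, was at 6.59, 5.00 and 4.28 against 2.69 to 3.81. For 7 of the 8 members, Mzb1 included and Jchain not, these 3 arrays were the 3 highest of 17, which held for 1.28% of all 18194 genes.

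The same 3 arrays had been picked out by T cell markers. The mean of 11 tested T cell genes was 7.42, 6.85 and 6.60 in wild-type 1-week array 1, heterozygous sham array 1 and wild-type sham array 1, and 4.28 to 5.01 in the other 14. Of 13 T cell genes on the array, 12 were highest in those 3 arrays, a count largely set by choosing the arrays on these markers. Among them was Lat, a T cell receptor adaptor, at 8.07, 7.18 and 7.08 against 5.08 to 5.90 in the other 14. Of the 22 other B cell genes on the array 10 had the same top 3. Of the 6 lymph node stroma and vessel markers on the array 0 had it, but 4 of them lay under the low-level filter. The mean of the other 2, Glycam1 and Cxcl13, was 11.22 in wild-type 1-week array 1, 8.79 in heterozygous sham array 1 and 7.12 in wild-type sham array 1, and 4.97 to 9.42 in the other 14. The labels say that the lymph node was removed. The part of remaining lymphoid tissue in these values was not tested. Glycam1 ranged more widely over the glands than Cxcl13. Whether its signal came from lymph node vessels or from other cells, such as mammary epithelium, was not tested. The mean of Glycam1 and Cxcl13 may therefore not measure lymph node tissue alone.

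In the comparisons the differences of the B cell genes had wide errors. At 1 week after 10 cGy in wild-type glands Jchain was at 1.85 (SE 0.80, limma adjusted p = 0.958), Mzb1 at 0.64 (SE 0.61), Cd79b at 0.39 (SE 0.94), Ms4a1 at -0.020 (SE 1.37) and Cxcr5 at 0.52 (SE 0.67) relative to sham. In that comparison 0 genes passed limma and 4.54% had an unadjusted p under 0.05. The wild-type sham and 1-week groups each held 1 of the 3 high arrays, and Ms4a1 ran from 3.63 to 9.70 within the 1-week group. Jchain at 1 week differed by 0.61 without wild-type 1-week array 1 and by 2.80 without array 2 of that group. Without the 3 arrays it differed by 0.71, and Mzb1, Cd79a, Cd79b, Cr2, Pou2af1 and Cxcr5 changed sign, to between -0.094 and -0.68, while Ms4a1 was at -1.06. At 4 weeks the 8 members differed by -1.37 to -0.18 from wild-type sham and by -1.28 to 0.11 from heterozygous sham, and at 1 week in heterozygotes by -1.62 to -0.42, with 0 of 8 passing limma in each. Over all genes 0 passed in wild-type at 4 weeks and in heterozygotes at 1 week, where 2.29% and 3.96% had an unadjusted p under 0.05; in heterozygotes at 4 weeks 2 passed (0.0154%) and 5.29% did. For the interactions, the response in heterozygotes minus that in wild-type, Jchain was at -2.38 (SE 1.19; -1.14 without wild-type 1-week array 1) at 1 week and 0.28 (SE 1.13) at 4 weeks; 0 genes passed and 3.05% and 1.78% had an unadjusted p under 0.05. Cxcr5 alone separated wild-type 4-week from sham arrays, all lower, but it lay under the low-level filter. Of the 12945 genes past that filter, 765 (5.91%) separated in either direction. Because sham glands exist for 1 week alone, 4-week comparisons also span 3 weeks of time since treatment, and may span 3 weeks of age. The age given is 10 weeks for every gland, at 1 and 4 weeks alike.

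Genotype differences of the B cell genes, averaged over conditions, were -0.44 (SE 0.82) for Ms4a1, -0.073 (SE 0.27) for Cd79a, -0.20 (SE 0.56) for Cd79b, -0.32 (SE 0.55) for Cr2, -0.38 (SE 0.63) for Pou2af1 and -0.48 (SE 0.40) for Cxcr5, with limma adjusted p-values of 0.633 to 0.926. Cd79a, Cr2, Pou2af1 and Cxcr5 lay under the low-level filter in glands and were tested over all 18194 genes, of which 11.6% had an unadjusted p under 0.05. Without the 3 arrays these differences turned positive for Ms4a1, Cd79a, Cd79b, Cr2 and Pou2af1, at 0.13 to 0.24, while Jchain was then at 1.86 (limma adjusted p = 0.0724) and Igha at 1.57 (0.178). Whether Jchain differed from the B cell genes in its response to genotype was not tested. Of 18 other B cell genes tested, 0 passed and 2 had an unadjusted p under 0.05, both lower. Ighm, Ebf1 (a B lineage factor also made by adipocytes) and Blnk (a receptor adaptor) were the brightest, at means of 9.10, 8.93 and 7.58.

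The 5 genes most like the mean pattern of Ms4a1, Cd79a and Cd79b were Fcer2a, the CD23 receptor of B cells (r = 0.957), Fcmr, the IgM receptor (0.955), Jakmip1 (0.954), Tbc1d10c (0.954) and Gimap7 (0.954). Their correlations with Jchain were 0.498 to 0.604, over the same 17 arrays. Fcer2a was at 7.34, 6.15 and 5.67 in the 3 high arrays and at most 4.03 elsewhere.

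Among the factors that feed or attract these cells, 6 were tested and 0 passed limma for genotype. Cxcl12, a chemokine that retains plasma cells, was brightest at 9.44 to 10.54, then Icam1 and Vcam1, adhesion molecules of vessels, at 7.03 to 8.23 and 6.85 to 8.57.

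Tumours, plasma cell genes. Jchain was higher in tumours of irradiated heterozygous hosts than in tumours of irradiated wild-type hosts, with overlap and without passing over all genes. In irradiated wild-type hosts it ran from 4.16 through a median of 5.45 to 10.80. In irradiated heterozygous hosts it ran from 5.28 through 7.95 to 10.54. Sham wild-type hosts gave 4.40, 6.83 and 7.26 as lowest, median and highest. Sham heterozygous hosts gave 4.60, 6.56 and 10.21. The irradiated heterozygous group was thus highest by median and irradiated wild-type lowest, and all 4 groups overlapped.

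The host genotype difference after irradiation was 2.34 (SE 0.59), or 5.06-fold, for Jchain, with an unadjusted limma p = 0.000236 and a limma adjusted p = 0.456 over 12786 genes. In that comparison 1 gene, or 0.00782%, passed and 5.6% had an unadjusted p under 0.05. Over the alternatives the difference was 2.31 to 2.56, and the limma adjusted p came down to 0.0733 without the irradiated wild-type tumour highest in Cr2. That tumour was also the highest of all tumours for Jchain itself, at 10.80, so leaving it out raises the difference. In sham hosts the genotype difference was 0.67 (SE 0.82), and the interaction, the genotype difference after irradiation minus that in sham, was 1.67 (SE 1.00, limma adjusted p = 1.00), so a dependence on host irradiation was not shown. Irradiation itself differed from sham by -0.29 (SE 0.61) in wild-type and 1.37 (SE 0.80) in heterozygous hosts. In these 4 comparisons 0 genes passed limma; 5.29% (genotype in sham hosts), 4.83% (interaction), 6.94% (wild-type hosts) and 3.95% (heterozygous hosts) had an unadjusted p under 0.05.

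Mzb1 spanned a narrower range. It was 5.96 to 7.72 (median 6.32) in irradiated wild-type, 6.09 to 8.63 (6.53) in irradiated heterozygous, 5.79 to 7.08 (6.35) in sham wild-type and 6.02 to 7.12 (6.55) in sham heterozygous host tumours. Its host genotype difference after irradiation was 0.40 (SE 0.18, limma adjusted p = 0.854). Igha paralleled Jchain, at 5.73 to 11.08 (median 6.92) in irradiated wild-type and 6.54 to 12.58 (9.41) in irradiated heterozygous host tumours, a difference of 2.24 (SE 0.57, limma adjusted p = 0.456). The 5 genes most like Jchain over 48 tumours were the same immunoglobulin kappa variable gene (r = 0.956), Igha (0.947), Ighm (0.818), the sulfotransferase Sult1a1 (0.730) and Lat (0.715). Of 14 other plasma cell genes tested, 0 passed, 1 had an unadjusted p under 0.05 upward and 1 downward, and their median difference was 0.0037, beside -0.00028 for all genes. Fkbp11 did not parallel Jchain here, averaging 9.46 in irradiated heterozygous and 9.56 in irradiated wild-type host tumours.

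Adipocyte markers were higher in some irradiated heterozygous host tumours, though 0 of 4 passed. The mean of 4 tested adipocyte genes was 6.22 to 10.39 in irradiated heterozygous and 6.25 to 7.99 in irradiated wild-type host tumours, and 3 of the 4 had an unadjusted p under 0.05, higher. T cell markers averaged 5.64 to 6.66 and 5.38 to 7.85 in these groups. The part of either in the Jchain difference was not tested.

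**Figure D3:**
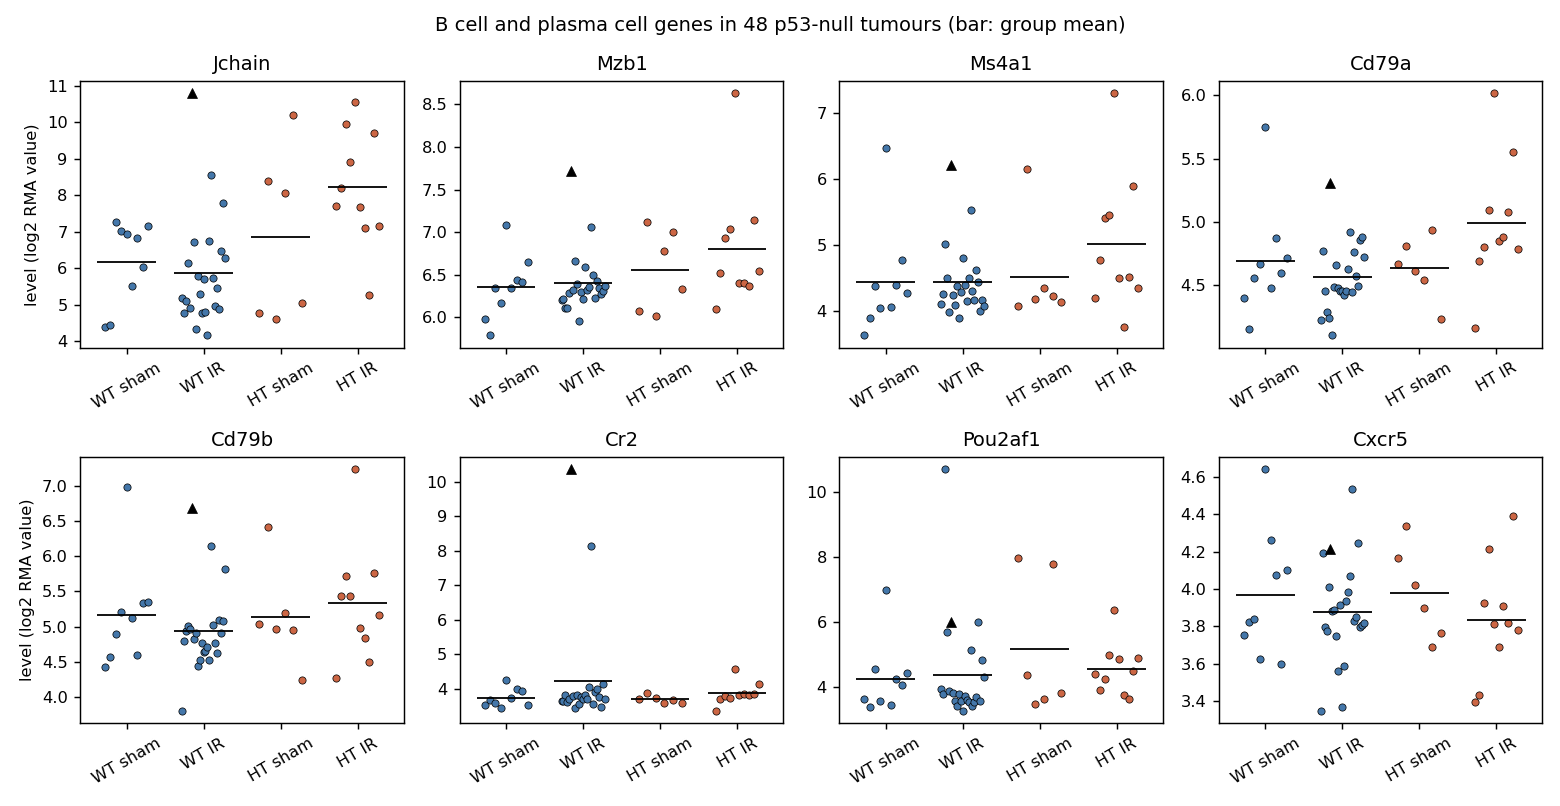
Level (log2 RMA value, vertical axis, a separate scale per gene) of the 8 genes in 48 tumours by host group, sham or irradiated (IR), wild-type (WT, blue) or Tgfb1 heterozygous (HT, orange), with a bar at the group mean. The triangle is the tumour highest in Cr2, at 10.38, and Pou2af1 is highest in another tumour, at 10.71.

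Tumours, B cell genes. All 6 had mean levels under the filter of 5.14, so they were tested over 18194 genes without a filter. In tumours of irradiated hosts Cd79a differed by 0.42 (SE 0.14), Ms4a1 by 0.57 (SE 0.28) and Cd79b by 0.39 (SE 0.26) between heterozygous and wild-type, with limma adjusted p-values of 0.542, 0.759 and 0.850. Cr2 differed by -0.36 (SE 0.43), Pou2af1 by 0.17 (SE 0.54) and Cxcr5 by -0.040 (SE 0.11). Between genotypes of sham hosts the 6 genes differed by -0.055 to 0.92. Irradiation differed from sham by -0.22 to 0.48 in wild-type and by -0.62 to 0.50 in heterozygous hosts. In each of these 0 of the 6 had an unadjusted p under 0.05, beside 6.16%, 7.4% and 4.2% of all genes with no filter. For the interaction the 6 genes ran from -0.74 to 0.49, and 1 had such a p, beside 4.97%. In irradiated hosts 4 of the 8 members had an unadjusted p under 0.05 for genotype, all higher, beside 6.45% of all genes with no filter. They were Jchain, Mzb1, Ms4a1 and Cd79a, which correlate over tumours, so the 4 are not independent. Irradiated heterozygous host tumour 13 was the highest of all tumours for Mzb1, Ms4a1 and Cd79a and second for Jchain. No fit left that tumour out.

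Within groups, single tumours held the high values. Ms4a1 was 3.90 to 6.21 (median 4.30) in irradiated wild-type and 3.76 to 7.29 (4.65) in irradiated heterozygous host tumours, and 3.64 to 6.46 (4.27) and 4.08 to 6.14 (4.20) in the sham groups. Cd79a had medians of 4.49, 4.86, 4.60 and 4.64 in the same order, and Cd79b medians of 4.83, 5.30, 5.12 and 5.00. Irradiated heterozygous host tumour 13 was the highest of all 48 for Mzb1, Ms4a1, Cd79a and Cd79b, at 8.63, 7.29, 6.02 and 7.24, and for Igha at 12.58. Cxcr5 stayed between 3.34 and 4.64 in every tumour.

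Cr2 was set apart by irradiated wild-type host tumours 6 and 16, at 10.38 and 8.15, while the other 46 tumours were at 3.36 to 4.58. Tumour 6 also had the highest Jchain (10.80) and Ighm (13.06) of all tumours and a Ms4a1 of 6.21. Its Cxcl13, the ligand of CXCR5 made by follicular stroma, was 11.58 and the highest of 48, and in tumour 16 it was 9.50. Irradiated wild-type host tumour 2 was second for Cxcl13, at 10.91, with Cr2 at 3.66; Cxcl13 was named after its values were seen. T cell markers averaged 7.85 and 6.92 in these tumours, the top 2 of 48, and Cd3e, a T cell receptor subunit, was 6.87 and 7.00. No heterozygous host tumour exceeded 4.58 for Cr2.

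Pou2af1 peaked in other tumours. It was 10.71 in irradiated wild-type host tumour 3, where Jchain was 5.10, Cd79a 4.45 and Cr2 3.82. Sham heterozygous host tumour 1 was at 7.99 with Jchain at 4.77 and Ms4a1 at 4.08. Sham heterozygous host tumour 5 was at 7.79 with Jchain at 10.21 and Ms4a1 at 4.23. Of the 3 tumours highest for Pou2af1, Jchain was thus high in 1 and low in 2. Over all 48 tumours, with host groups pooled, their ranks still rose together, at Spearman rho = 0.48 (adjusted permutation p = 0.00136). Pearson r for Jchain and Pou2af1 was 0.272 (adjusted permutation p = 0.0687). Ms4a1 was 5.02 in tumour 3, above its group's median.

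**Figure D4:**
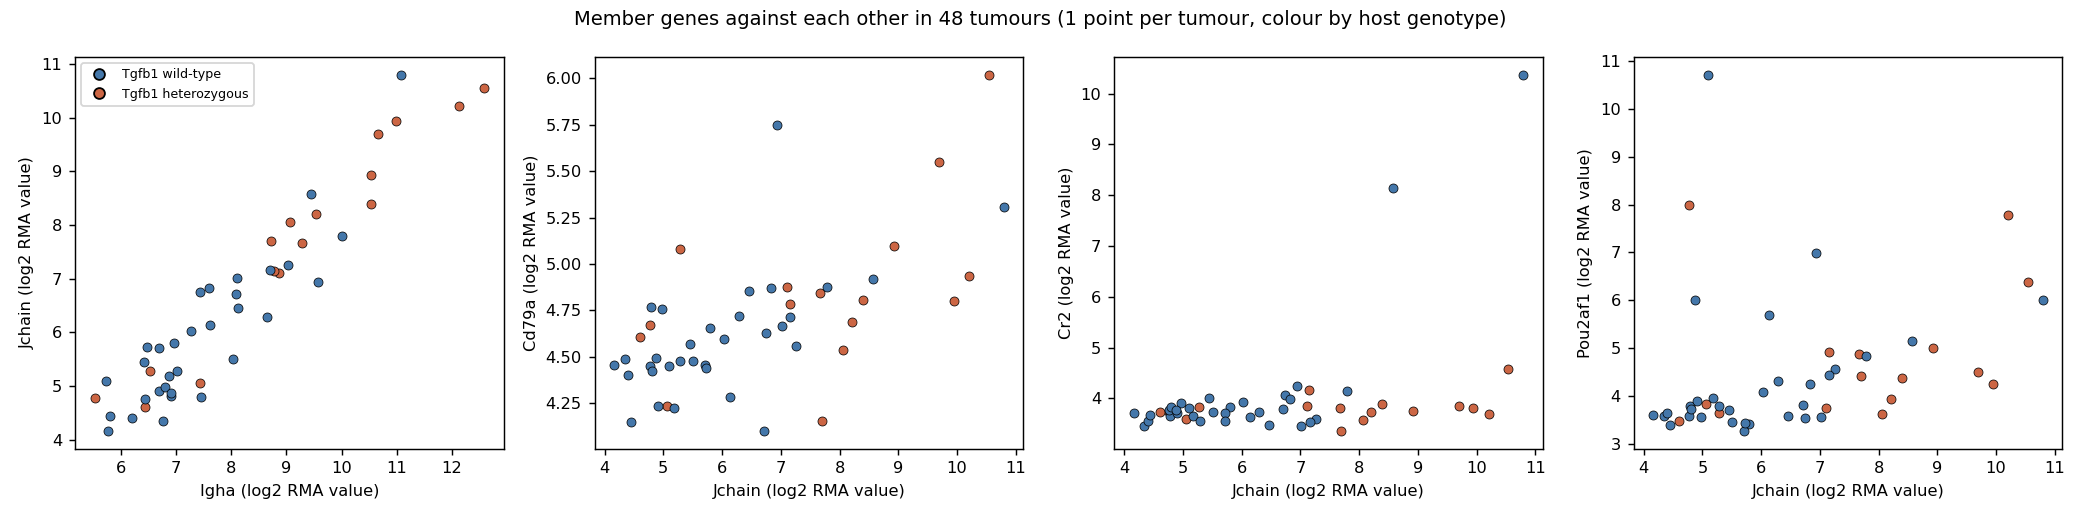
Levels (log2 RMA values on both axes) of pairs of genes in 48 tumours, 1 point per tumour, coloured by host genotype. Jchain follows Igha (r = 0.947), while Cr2 is high in 2 tumours and Pou2af1 is high in tumours with low as well as high Jchain. By rank over all 48 tumours, Jchain and Pou2af1 had Spearman rho = 0.48.

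Over all 48 tumours, all 28 pairs of members had a positive Spearman correlation, and 24 passed a permutation test adjusted over the 28 pairs. These counts pool 4 host groups with different means, and the share among other gene pairs was not computed. Within host groups 6 of the 28 pairs passed in irradiated heterozygous (n = 10), all among Jchain, Mzb1, Ms4a1 and Cd79b, by permutation tests of Spearman's rho adjusted over 28 pairs, and 0 passed in the other 3 groups, where the smallest adjusted permutation p was 0.0599. Jchain and Mzb1 had Pearson r = 0.760 and Spearman rho = 0.646, with adjusted permutation p-values of 2.8e-05 and 7e-05, resting on the smallest raw p that 100000 permutations can give; without the 2 tumours farthest from the median of Jchain r was 0.711. Ms4a1 and Cd79b had r = 0.834 and rho = 0.468 (adjusted permutation p = 2.8e-05 and 0.00204), and r = 0.726 without 2 tumours. Within host groups their r was 0.680 in irradiated wild-type, 0.920 in irradiated heterozygous, 0.920 in sham wild-type and 0.902 in sham heterozygous. Without 2 tumours of each group it was -0.051, 0.720, 0.336 and 0.017 in the same order. Jchain and Cr2 had r = 0.436 and rho = 0.313 (adjusted permutation p = 0.00717 and 0.0367), and r was 0.240 without 2 tumours, so it rests on them. Jchain and Cxcr5 were at r = 0.122 and rho = 0.056 (adjusted permutation p = 0.409 and 0.707). Within the 23 irradiated wild-type host tumours Jchain and Mzb1 had r = 0.721 and rho = 0.198, and r was -0.109 without the 2 tumours farthest from the median of Jchain, so in that group the relation rests on those tumours.

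The 5 genes most like the mean pattern of Ms4a1, Cd79a and Cd79b in tumours were Lat (r = 0.730), Cd3e (0.690), the T cell receptor genes Trav9d-3 (0.673) and Trbv1 (0.664), and Igha (0.658). Fcer2a lay under the low-level filter in tumours and could not appear in that ranking. Of 14 other B cell genes tested between irradiated heterozygous and wild-type hosts, 0 passed and 1, lower, had an unadjusted p under 0.05. The brightest, Blnk, Cd72 (a B cell inhibitory receptor) and Bcl6 (a germinal centre repressor), averaged 9.24, 9.19 and 8.57.

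**Figure D5:**
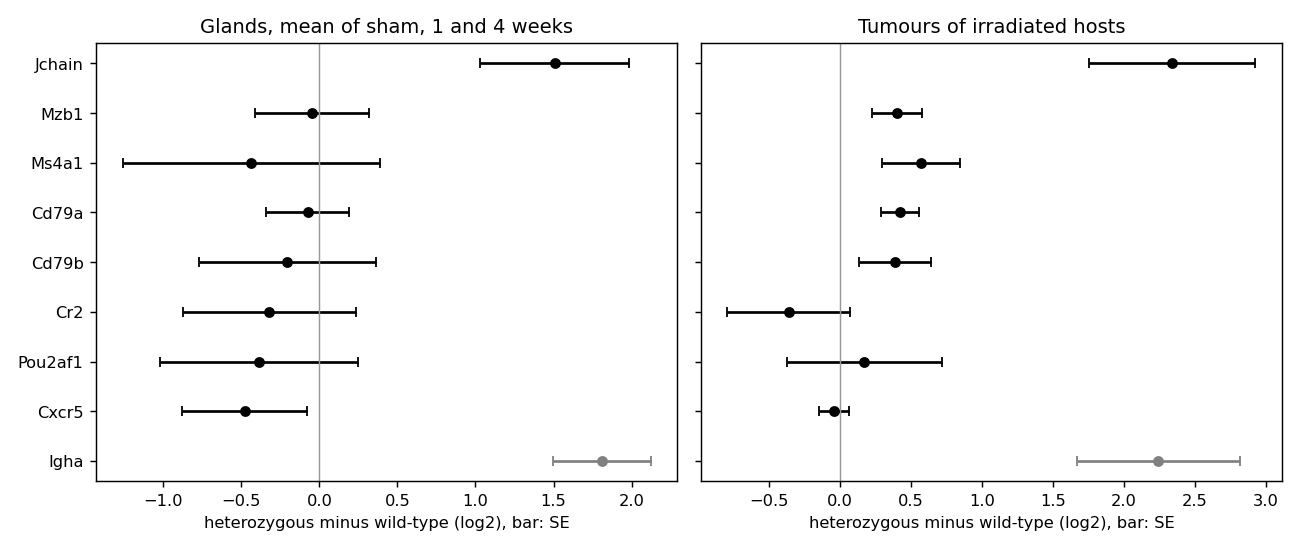
Heterozygous minus wild-type difference (log2, horizontal axis) with its limma SE for the 8 genes and Igha, averaged over gland conditions (left) and in tumours of irradiated hosts (right); glands and tumours were fitted apart. Jchain, at 1.51 and 2.34, and Igha, at 1.81 and 2.24, lie farthest from 0, and none passed the adjusted threshold.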

How the data were processed

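RNA of 17 glands and 48 tumours was measured on arrays of 45101 probe sets. The authors deposited gland values as linear intensity and tumour values as log2, RMA being named for both in the submitters' processing notes; its version was not given in the sources used here. RMA normalizes arrays to each other, and whether both tissues were normalized together is not stated, so no gland was compared with a tumour. Gland values were converted to log2 here.

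The platform annotation names 1 gene for 34958 probe sets, several for 932 and none for 9211; 99.4% of gene identifiers matched RefSeq (GRCm38.p6). Each of 18194 genes was represented by the brightest of its probe sets on average. Genes with a mean under the 40th percentile of probe sets (4.15 in glands, 5.14 in tumours) were set aside, leaving 12945 and 12786. Jchain, Mzb1, Ms4a1 and Cd79b passed in glands and Jchain and Mzb1 in tumours; other members are reported from the fit over all 18194 genes. Signal over background was not available per probe, and the number of arrays limits the precision.

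One limma 3.58.1 model per tissue (R 4.3.3) held a mean for each group, with an empirical Bayes variance trend, two-sided tests and Benjamini-Hochberg adjustment over the genes tested at 0.05. The fit was tested on simulated data. Glands gave 8 comparisons and tumours 5. Correlations over tumours used 100000 permutations. Alternatives were all probe sets averaged, no filter, quantile normalization, no variance trend, an added 16 in intensity (glands), the replicate block, each gland array left out, and the tumour with conflicting labels moved or left out; leaving out the 3 T cell-rich gland arrays or the tumour highest in Cr2 was chosen after seeing the data.

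The members and lists were chosen with earlier results of these data known, and the motifs after the promoter sequences were seen. Named beside the members are list genes that passed, otherwise the 3 brightest of a list, and the 5 genes most like Jchain or the mean of Ms4a1, Cd79a and Cd79b; exceptions are stated. The labels do not say whether gland arrays come from separate animals, so p-values measure the spread between arrays, which may be partly technical. To check whether repeat numbers pair the glands, deviations from group means were correlated. Same-numbered sham and 4-week arrays were at 0.123 to 0.216 for wild-type animals and 0.112 to 0.316 for heterozygous ones, which meets the limit of 0.1 for pairing; pairs with 1-week glands, and pairs of tumours, did not.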

Additional observations from a re-analysis of the deposited data

Results flagged for a closer look

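In groups of 4 to 10 tumours, the highest tumour stood clear of the rest by Dixon's test in 8 of 24 combinations of a member and a group, where chance gives about 1 in 20 for independent groups. Over all 18194 genes in the same 3 groups, 9.92% of combinations of a gene and a group had such a tumour at either end and 7.21% at the high end. The 8 come from 3 tumours and from genes that correlate, so they are not independent. In sham wild-type hosts tumour 5 was highest for Ms4a1 (6.46, next 4.77), Cd79a (5.75, next 4.87), Cd79b (6.98, next 5.35) and Pou2af1 (6.99, next 4.56). In irradiated heterozygous hosts tumour 13 was highest for Mzb1 (8.63, next 7.14), Cd79b (7.24, next 5.76) and Pou2af1 (6.37, next 4.99). In sham heterozygous hosts tumour 2 was highest for Ms4a1 (6.14, next 4.36). T cell markers averaged 6.49, 6.66 and 6.49 in these 3 tumours. The 23 tumours of irradiated wild-type hosts and the gland groups of 2 or 3 were not tested in this way.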

How the results depend on the processing

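No member passed limma as reported, and 1 did in 1 alternative, Jchain for gland genotype without wild-type 1-week array 1 (1.92), its range on leaving out 1 array being 1.19 to 1.92. Igha passed with no filter (1.81) and ranged from 1.67 to 2.03 on leaving out 1 array, and passed when array 3 of the wild-type 1-week group, or array 2 of the heterozygous sham group, was left out. Leaving out 1 array turned the sign of gland genotype differences that had not passed: Mzb1 ranged from -0.21 to 0.28, Ms4a1 from -0.83 to 0.22, Cd79a from -0.24 to 0.18, Cd79b from -0.46 to 0.27, Cr2 from -0.57 to 0.15 and Pou2af1 from -0.67 to 0.18, the upper ends all without wild-type 1-week array 1. Without the 3 T cell-rich arrays they were Mzb1 0.19, Ms4a1 0.14, Cd79a 0.14, Cd79b 0.24, Cr2 0.16 and Pou2af1 0.13. For wild-type 1 week against sham, ranges on leaving out 1 array were -0.33 to 1.13 for Mzb1, -2.0 to 1.03 for Ms4a1, -0.37 to 0.88 for Cd79a, -1.02 to 1.17 for Cd79b, -1.07 to 1.11 for Cr2, -1.33 to 1.23 for Pou2af1 and -0.55 to 1.10 for Cxcr5; without the 3 arrays Mzb1 was at -0.094, Cd79a -0.21, Cd79b -0.44, Cr2 -0.33, Pou2af1 -0.68 and Cxcr5 -0.36. Ms4a1 was there at 0.28 with the mean of probe sets and 0.25 with 16 added to intensity. In the same comparison Jchain ranged from 0.61 to 2.80, and in the 1-week interaction from -3.33 to -1.14 (-0.97 without the 3 arrays). Jchain at 4 weeks ranged from -0.49 to 0.096 in wild-type, -0.31 to 0.45 in heterozygotes and -0.13 to 0.63 in the interaction. The cause of these changes was not tested.

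Counts of all genes passing moved as follows on leaving out 1 array: gland genotype 3 to 15 against 6 (3 when array 2 of the heterozygous 1-week group was left out, 15 for array 2 of the heterozygous sham group), genotype in sham 0 to 2, heterozygotes at 1 week 0 to 15 (without array 1, leaving a lone array assumed to vary like the others) and at 4 weeks 0 to 4 against 2, interaction at 1 week 0 to 3, and members passing for gland genotype 0 to 1. With no filter 12 genes passed for gland genotype and 2 for host genotype after irradiation, against 1. Heterozygotes at 4 weeks gave 1 with the mean of probe sets, 1 with the replicate block and 0 without the 3 T cell-rich arrays, where wild-type 1 week gave 1. The replicate block gave 0 for host genotype after irradiation and changed no member's call; Jchain was then at 1.47 in glands (limma adjusted p = 0.248) and 2.48 in tumours of irradiated hosts (0.590). Of 28 pairs of members in tumours, 24 passed, 20 with quantile normalization and 23 without the tumour with conflicting labels. In glands 4 members and in tumours 6 lay under the filter on low levels, where array signals are least precise.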
